A study of Glycine max with 30 samples.

Results

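Mature leaves of soybean (Glycine max) were profiled by poly(A) RNA sequencing in plants that carry an RNA interference (RNAi) construct and in siblings without it. The 81 genes described here, of 55589 gene identifiers counted, had a high mean in leaves carrying the GmNRPE1-RNAi construct. In the GmNRP(D/E)2-RNAi family their 2 group means differed little once a small constant was added to each. The genes were chosen on CPM (a gene's count per 1000000 counts of its library). The ratio of the transgenic (T) mean to the non-transgenic (NT) mean, with 0.5 CPM added to each, had to be at least 3 in the NRPE1-RNAi family with a T mean of at least 2 CPM. In the NRP(D/E)2-RNAi family the same ratio had to lie between 0.67 and 1.5. Identifiers from Glyma.16G168000 to Glyma.16G174000 and from Glyma.16G186000 to Glyma.16G194000 were left out. The values of both families therefore chose the genes, and what they show in those families is given as a description. The third family, NRPD1-RNAi, played no part in the choice.

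The groups were NRPE1-RNAi T (6 libraries) and NRPE1-RNAi NT (6), NRP(D/E)2-RNAi T (6) and NRP(D/E)2-RNAi NT (6), and NRPD1-RNAi T (3) and NRPD1-RNAi NT (3). The first 2 families are of cultivar Mustang and the third is of cultivar Jack. NT plants are siblings of the T plants of their own family, so they share its cultivar and its line but lack the transgene. The labels name neither the promoter of the constructs nor the number of independent insertions nor the age of the plants.

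NRPD1 and NRPE1 are the largest subunits of the plant-specific RNA polymerases IV and V (Pol IV and Pol V). Both enzymes share a further large subunit, NRP(D/E)2. In RNA-directed DNA methylation, Pol IV starts the production of small interfering RNAs, and Pol V makes scaffold transcripts to which those small RNAs guide the methylation machinery, which keeps transposable elements and some genes silent. A construct against NRPE1 is aimed at Pol V, one against NRPD1 at Pol IV, and one against NRP(D/E)2 at both. The count tables pair no identifier with a gene name, so roles of the 81 genes and the level of each targeted subunit gene are not given here.

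Library totals ran between 10049997 and 21763621 counts, so that 1 count was worth between 0.0459 and 0.0995 CPM. A gene with no count in a library could have been present at up to 3 counts, which is between 0.138 and 0.299 CPM and covers counting error only. A few libraries stood apart from their own group. Across 28287 genes with a mean of at least 2 CPM over all libraries, the mean Pearson r of log2 CPM with the other libraries of the group was 0.881 for NRPE1-RNAi T replicate 1 and 0.892 for T replicate 6, against 0.930 to 0.938 for T replicates 2 to 5. It was 0.839 for NRPE1-RNAi NT replicate 4, whose closest library was NRPE1-RNAi T replicate 4 (r = 0.929), and 0.849 for NRPD1-RNAi T replicate 3.

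In the NRPE1-RNAi family 515 genes met the ratio and level thresholds. Of these, 428 lay above the NRP(D/E)2-RNAi window, 6 lay below it and 81 lay inside it. None of the 142 genes of the left-out stretches lay inside it. The 81 genes were scattered over all 20 chromosomes, with 1 to 9 on each and 9 of the 3679 listed genes of chromosome 8, and no pair stood within 5 identifiers of each other. Their ratio in the NRPE1-RNAi family had a median of 3.90 and ran between 3.00 and 42.95. Their ratio in the NRP(D/E)2-RNAi family had a median of 1.19 and ran between 0.70 and 1.5. In that family the T mean was the higher one for 66 of the 81, and 18 had a ratio of at least 1.4, near the upper edge of the window. By edgeR 36 of the 46 members tested there had a positive log2 fold change, T over NT, beside 48.7% of all genes tested. Both NRP(D/E)2-RNAi group means were under 0.5 CPM for 31 of the 81 genes. At such levels the added 0.5 CPM draws the ratio towards 1, so it says little of the fold difference between the groups. With 0.1 CPM added in place of 0.5, 49 of the 81 genes met the rule. Both NRP(D/E)2-RNAi group means were at least 2 CPM for 33.

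Nearest above the ratio threshold, Glyma.15G118500 had a ratio of 3.00, Glyma.04G250900 had 3.03 and Glyma.03G175000 had 3.04. Nearest below it, Glyma.03G078600 had 2.99, and Glyma.08G015300 and Glyma.08G121300 each had 2.98.

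The label "raised in NRPE1-RNAi only" described group means and not most of the plants. For 48 of the 81 genes, a single T library held over 50% of the summed CPM of the 6 NRPE1-RNAi T libraries. Among all 27627 genes with an NRPE1-RNAi T mean of at least 2 CPM, 2.56% did so. The median share of the highest library was 64.4% over the 81 genes and 21.6% over those 27627, where an equal share would be 16.7%. The rule used these T values, and a ratio of means can be met through 1 high library. The shares of the members are therefore a description. The highest library was T replicate 1 for 32 of the 48 genes, T replicate 6 for 14 and T replicate 2 for 2. Among the 27627 genes, 707 had over 50% in 1 T library. For these it was T replicate 1 for 291, T replicate 6 for 374 and T replicate 2 for 5, so peaks in replicates 1 and 6 were not particular to the members. T replicates 1 and 6 are those that correlated least with their group. The other 33 genes were spread over the T libraries, with a median share of 31.1% in the highest. Because leaves were taken in bulk, more cells of a type and more RNA per cell cannot be told apart in any of these values.

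**Figure D1:**
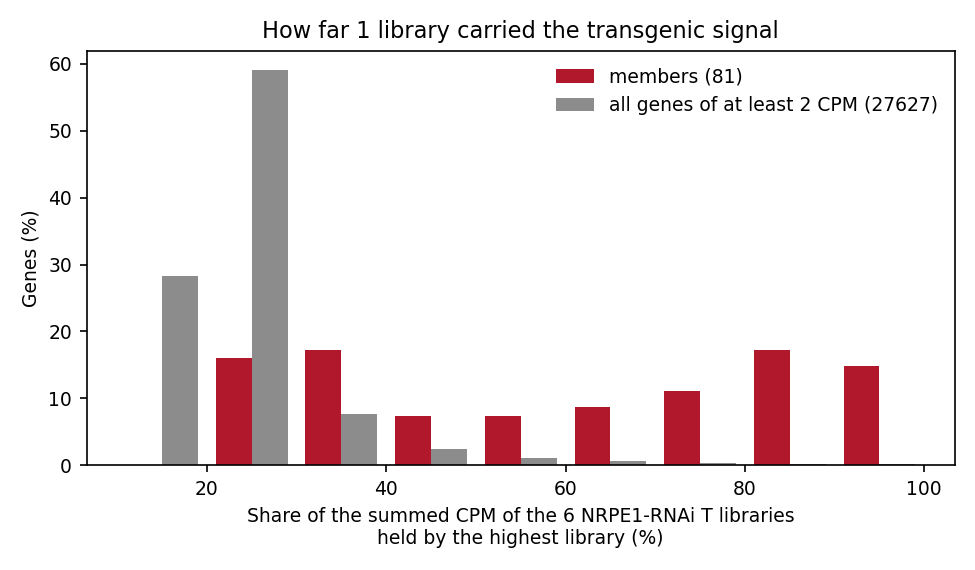
Share of the summed CPM of the 6 NRPE1-RNAi T libraries held by the highest of them (x axis, percent) against the percent of genes (y axis), for the 81 genes (red) and for all 27627 genes with a T mean of at least 2 CPM (grey). The grey bars crowd near the equal share of 16.7% while the red bars reach up to 100%.

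The rule was applied again without each of these libraries. Without T replicate 1, 45 of the 81 genes still met it, and none of the 32 genes that peaked in T replicate 1 did. Without T replicate 6, 62 of the 81 still met it, and of the 14 genes that peaked there 1 did, Glyma.20G067800. Without both, 29 of the 81 remained, of which 26 belonged to the 33 spread genes. Leaving out NRPE1-RNAi NT replicate 4 enlarged the set to 140 genes, which included 75 of the 81.

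**Figure D2:**
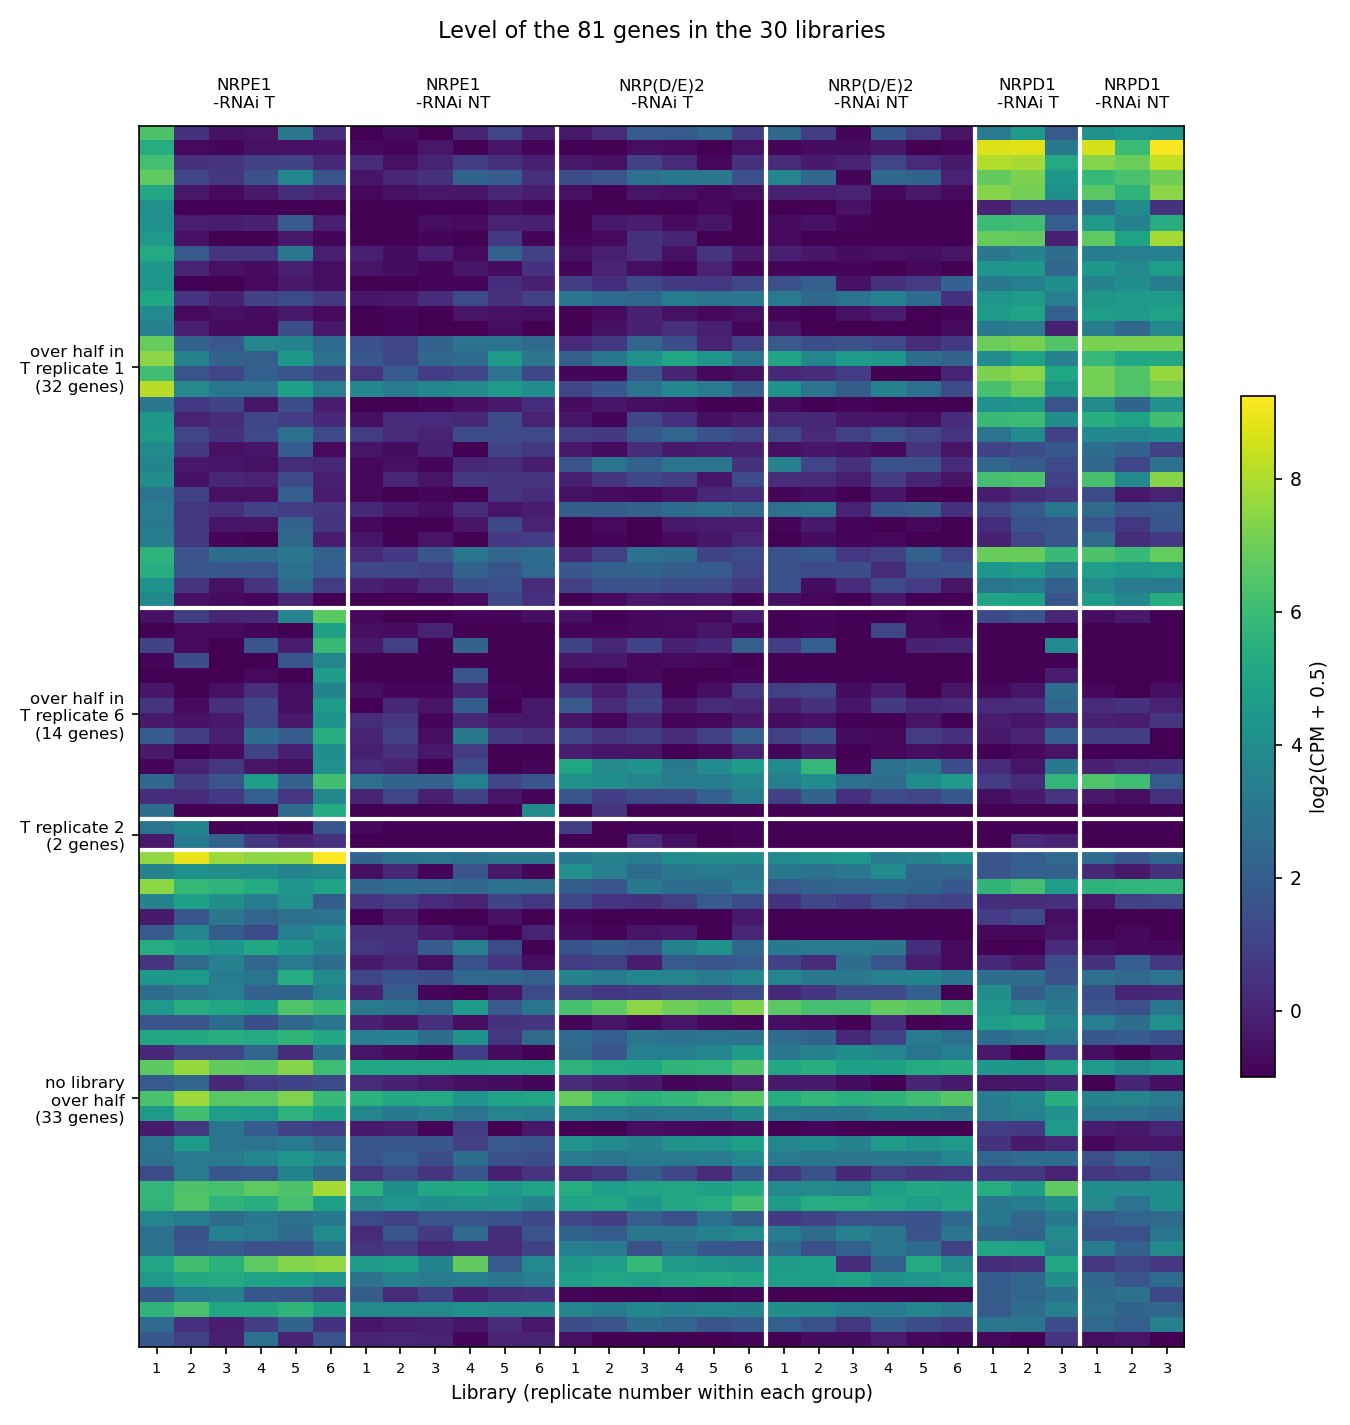
Level of each of the 81 genes (rows, grouped by the NRPE1-RNAi T library that held over 50% of the T signal) in each of the 30 libraries (columns), as log2(CPM + 0.5) with yellow high and dark blue low. The upper 32 rows are bright in NRPE1-RNAi T replicate 1 and in most NRPD1-RNAi libraries, the next 14 in NRPE1-RNAi T replicate 6, and the lower 33 across the 6 NRPE1-RNAi T libraries.

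In the 33 spread genes the difference was shared by most NRPE1-RNAi T plants. All 6 T libraries lay above all 6 NT libraries for 22 of the 33, and for 25 of the 81, beside 1.47% of the genes of at least 2 CPM. By edgeR's quasi-likelihood test in the same family (Benjamini-Hochberg adjusted p under 0.05), 374 of 31440 genes tested (1.19%) were called higher in T. Of the 48 members that passed the filter on low counts 23 were among them, all of them spread genes. The rule used this contrast, and the same T values set the spread class. Nothing is therefore read from the edgeR calls or from the counts of genes without overlap. P-values measure the spread between these libraries, and the labels do not say more of the replicates than that they are numbered siblings.

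Glyma.15G235900, on chromosome 15, had the widest ratio of the 81, at 42.95. Its level in NRPE1-RNAi T leaves was 180 CPM at the lowest, 203 at the median and 608 at the highest, against 4.36, 7.11 and 7.79 CPM in NRPE1-RNAi NT leaves. Every T plant was far above every NT plant, and the NT plants kept within a narrow band. In the NRP(D/E)2-RNAi family it had 8.30 to 16.1 CPM in T leaves and 9.04 to 20.05 CPM in NT leaves. In the NRPD1-RNAi family it had 2.84, 3.69 and 5.17 CPM in T leaves, against 5.44, 2.76 and 5.06 CPM in NT leaves. Neither of those families had a plant near the NRPE1-RNAi T range.

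Glyma.07G192400, on chromosome 7, showed the most even level among NRPE1-RNAi T plants, with 21.5% of the T signal in the highest library. It had 11.6 CPM at the lowest, 14.5 at the median and 18.8 at the highest in T leaves, against 0.0725, 0.245 and 2.73 CPM in NT leaves. NT replicate 4 held the 2.73 CPM, and the other NT plants were at or below 0.638 CPM. The NRP(D/E)2-RNAi family was not low for this gene: it had 5.52 to 16.97 CPM in T leaves and 4.53 to 15.1 CPM in NT leaves. All 12 of those plants, transgenic or not, lay above all 6 NRPE1-RNAi NT plants.

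Glyma.09G058800, on chromosome 9, had 3.59 CPM at the lowest, 13.8 at the median and 28.4 at the highest in NRPE1-RNAi T leaves, against 0.501, 1.01 and 1.66 CPM in NRPE1-RNAi NT leaves. The groups did not overlap, and T replicate 6 was the lowest T plant. Here the other Mustang family was low in both groups, at 0.921 to 3.33 CPM in NRP(D/E)2-RNAi T leaves and 0.901 to 2.51 CPM in NRP(D/E)2-RNAi NT leaves.

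Glyma.14G200900, on chromosome 14, had 179 CPM in NRPE1-RNAi T replicate 1 and 56.0, 49.9, 39.3, 20.7 and 30.3 CPM in T replicates 2 to 6, against 4.70 to 6.83 CPM in the 6 NT libraries. T replicate 1 held 47.7% of the T signal, just under the 50% that divided the genes, yet the other T plants were also above every NT plant. Both groups of the NRP(D/E)2-RNAi family were at the NT level, with 2.74 to 9.59 CPM in T and 2.90 to 4.92 CPM in NT. Jack plants were high with or without the construct, at 51.4, 75.0 and 25.4 CPM in NRPD1-RNAi T leaves and 48.2, 53.2 and 53.0 CPM in NRPD1-RNAi NT leaves.

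Several of the spread genes were barely detected in NRPE1-RNAi NT plants. Glyma.19G028900 had 0.328 CPM at the lowest, 5.45 at the median and 7.85 at the highest in NRPE1-RNAi T leaves, and in NRPE1-RNAi NT leaves it had no count in 4 libraries and at most 0.319 CPM. Glyma.09G135600 had 1.98, 6.81 and 15.7 CPM in T leaves, against 0, 0.435 and 0.855 CPM in NT leaves. Neither gene had a count in any of the 6 NRP(D/E)2-RNAi NT libraries. Summed over the 6 NRP(D/E)2-RNAi T libraries, Glyma.09G135600 had 20 counts, at up to 0.560 CPM, and Glyma.19G028900 had 6, at up to 0.311 CPM. Glyma.19G028900 had no count in the 3 NRPD1-RNAi NT libraries either. In NRPD1-RNAi T leaves Glyma.19G028900 had 1.23, 1.88 and 0.146 CPM.

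Others were well expressed already in NT plants and had T plants above them. Glyma.18G041900 had 66.6 CPM at the lowest, 106 at the median and 205 at the highest in NRPE1-RNAi T leaves, against 31.5, 32.4 and 35.1 CPM in NRPE1-RNAi NT leaves. The 6 NT plants differed by little, while the T plants spread widely above them. Glyma.02G237800 had 59.5, 98.0 and 213 CPM in T leaves, against 19.9, 32.9 and 45.9 CPM in NT leaves, and the groups again did not overlap. Both genes peaked in T replicate 2, followed by T replicate 5. Glyma.16G039800 had 52.7 CPM at the lowest in T leaves, against 47.7 CPM at the highest in NT leaves, and its T replicate 6 reached 230 CPM.

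Glyma.01G077000 had 11.5 to 40.1 CPM in NRPE1-RNAi T leaves, against 0 to 10.02 CPM in NRPE1-RNAi NT leaves, where NT replicate 4 was again the highest and the other NT plants were at or below 3.34 CPM. Glyma.18G030900 had 7.49 to 39.9 CPM in T leaves, against 1.71 to 5.23 CPM in NT leaves. The T and NT plants of both genes did not overlap. Glyma.02G053600 belonged to the spread genes but its groups overlapped. It had 31.7, 87.4 and 192 CPM as lowest, median and highest in NRPE1-RNAi T leaves, against 3.19, 18.5 and 109.9 CPM in NRPE1-RNAi NT leaves. The 109.9 CPM came from NT replicate 4, and the other NT plants reached 28.4 CPM at most.

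**Figure D3:**
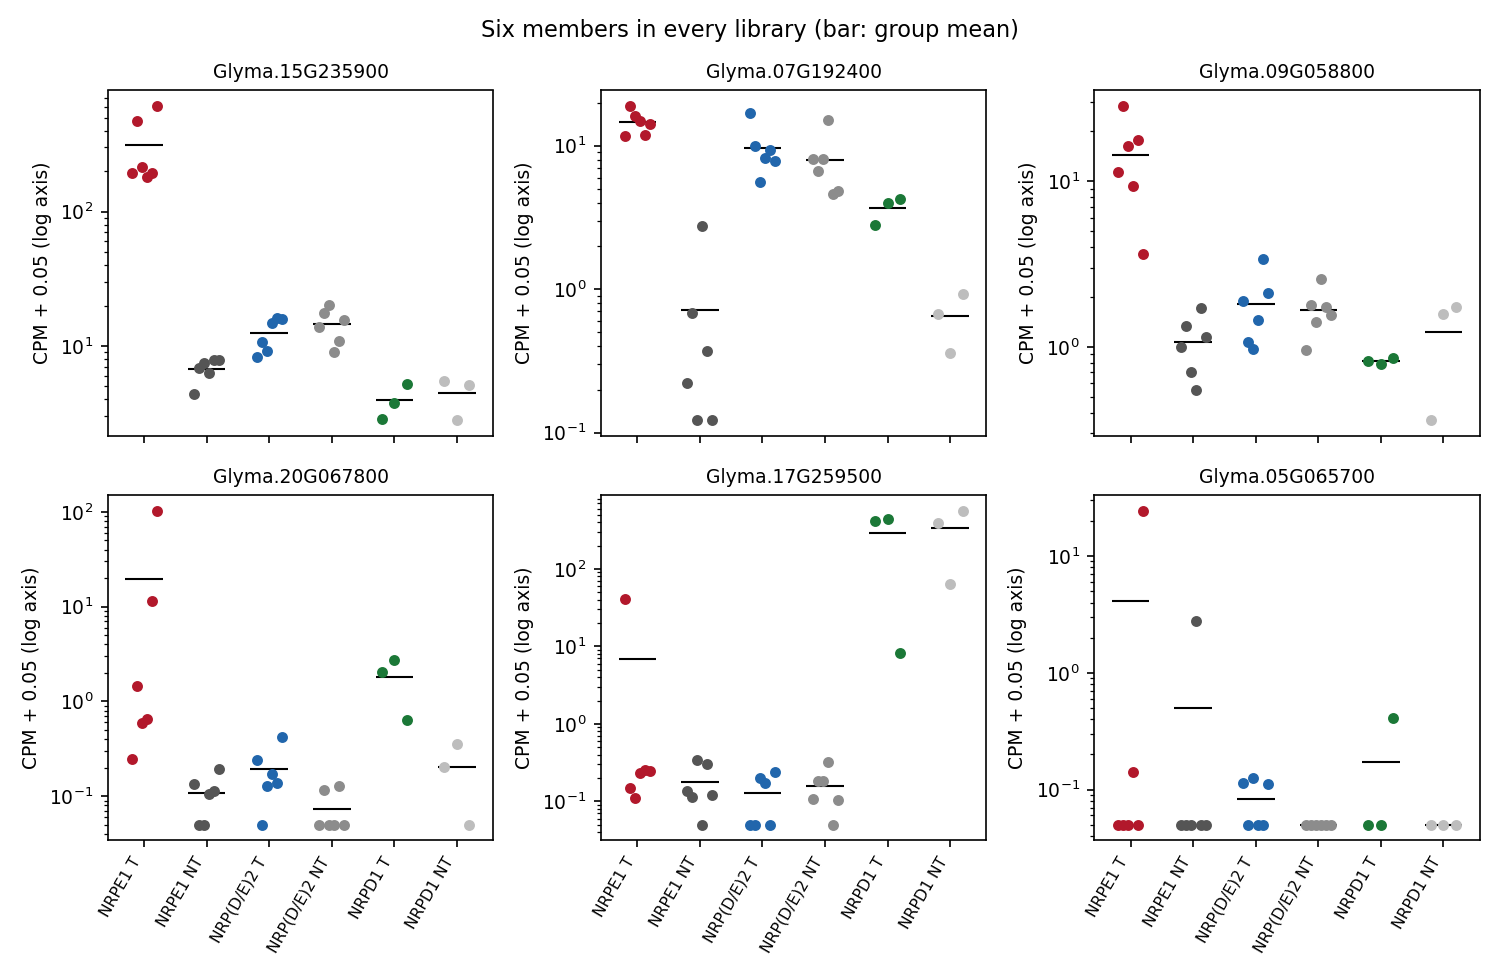
CPM plus 0.05 (y axis, log scale, 1 panel per gene) of 6 genes in each library (points) of the 6 groups (x axis), with group means as bars. The upper panels are genes of the spread class, with every NRPE1-RNAi T plant above every NRPE1-RNAi NT plant. In the lower panels 1 NRPE1-RNAi T plant stands far above the rest, and Glyma.17G259500 is high in the Jack family.

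A ratio near 1 in the NRP(D/E)2-RNAi family did not mean that the gene stood at the NRPE1-RNAi NT level there. For 11 of the 33 spread genes all 12 NRP(D/E)2-RNAi libraries lay above all 6 NRPE1-RNAi NT libraries, against 8.79% of the 27627 genes of at least 2 CPM. On the log2(CPM + 0.5) scale the NRP(D/E)2-RNAi mean was nearer to the NRPE1-RNAi T mean for 12 of the 33 and nearer to the NRPE1-RNAi NT mean for 21. The rule used the values of both families and favoured low NRPE1-RNAi NT means, so these counts are a description. Glyma.12G079500 had 76.4 to 177 CPM in NRP(D/E)2-RNAi T leaves and 67.5 to 111 CPM in NRP(D/E)2-RNAi NT leaves. In the NRPE1-RNAi family it had 22.8 to 85.2 CPM in T leaves and 3.13 to 24.8 CPM in NT leaves. Glyma.13G332200 had 11.3 to 27.3 CPM in NRP(D/E)2-RNAi T leaves and 11.2 to 24.3 CPM in NRP(D/E)2-RNAi NT leaves, against 1.45 to 3.13 CPM in NRPE1-RNAi NT leaves. For Glyma.08G032800 the NRP(D/E)2-RNAi family was also above most NRPE1-RNAi T plants, at 2.80 to 24.5 CPM in T leaves and 7.30 to 16.7 CPM in NT leaves, where NRPE1-RNAi T leaves had 0.590 to 6.68 CPM. The other members of this kind were Glyma.02G166300, Glyma.07G192400, Glyma.08G013200, Glyma.08G035000, Glyma.15G235900, Glyma.17G019000, Glyma.18G030900 and Glyma.20G020400.

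For 15 of the 81 genes all 12 NRP(D/E)2-RNAi libraries lay below all 6 NRPE1-RNAi T libraries, against 6.1% of the genes of at least 2 CPM; the NRPE1-RNAi T values are part of the rule, so that count is a description. Glyma.15G235900 met both conditions, standing between the 2 NRPE1-RNAi groups. Among the 15, Glyma.06G287000 had 32.2 to 52.4 CPM in NRPE1-RNAi T leaves, against 1.08 to 18.3 CPM in NRPE1-RNAi NT leaves. It had 3.63 to 7.67 CPM in NRP(D/E)2-RNAi T leaves and 0.612 to 8.91 CPM in NRP(D/E)2-RNAi NT leaves. Glyma.11G043600 had 2.25 to 7.62 CPM in NRPE1-RNAi T leaves, against 0.167 to 1.02 CPM in NRPE1-RNAi NT leaves. It stayed at or below 0.243 CPM in NRP(D/E)2-RNAi T leaves and at or below 0.716 CPM in NRP(D/E)2-RNAi NT leaves.

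**Figure D4:**
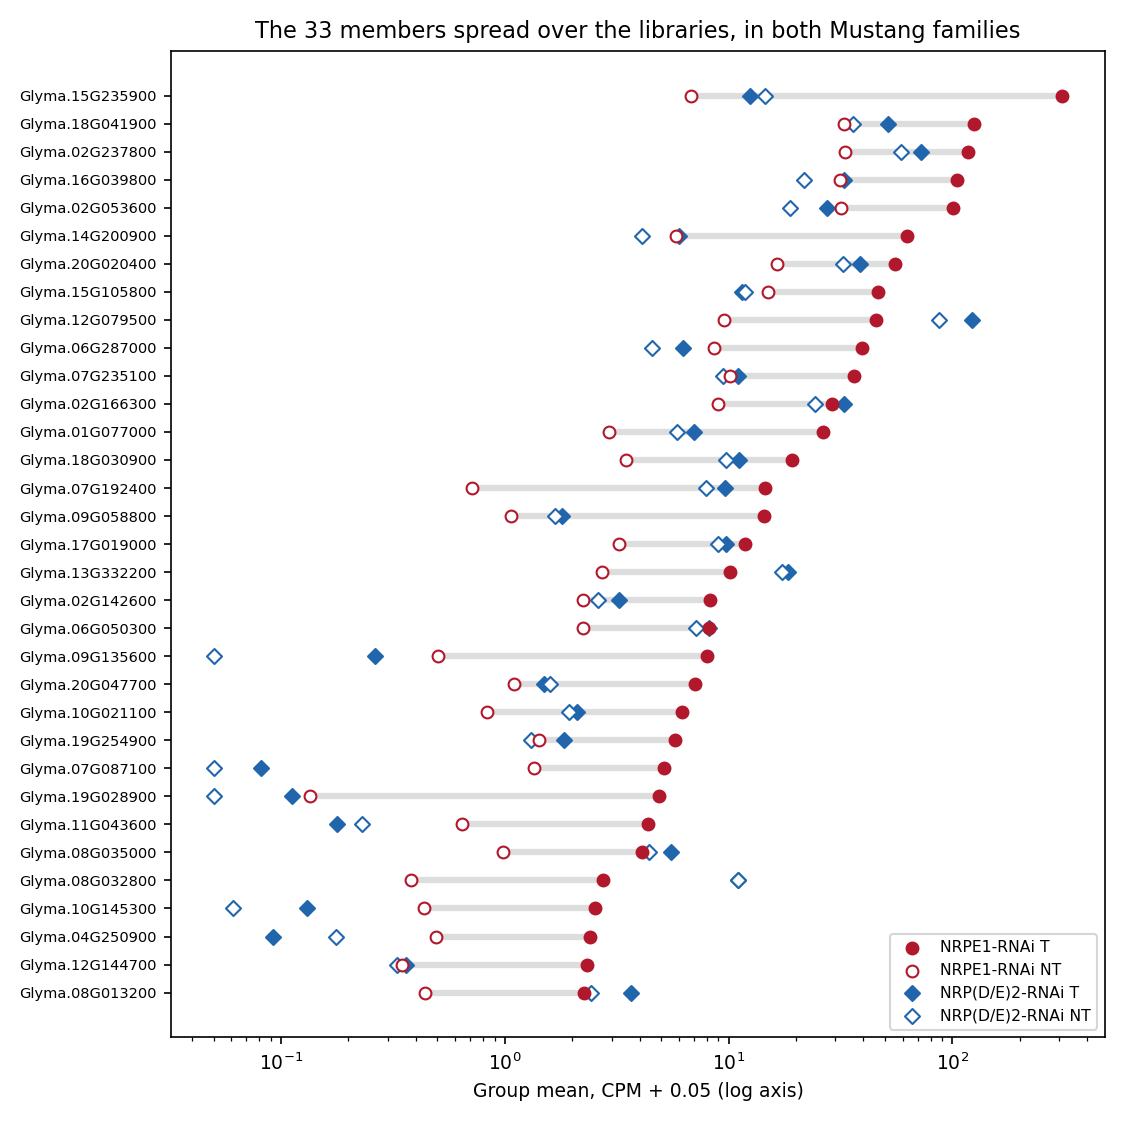
Group means of the 33 spread genes (rows) as CPM plus 0.05 (x axis, log scale), with NRPE1-RNAi T as filled circles, NRPE1-RNAi NT as open circles, NRP(D/E)2-RNAi T as filled diamonds and NRP(D/E)2-RNAi NT as open diamonds. The diamonds of a gene lie close together by the rule, but for 12 genes nearer to the filled circle and for 21 nearer to the open one.

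Within the NRP(D/E)2-RNAi family itself none of the 81 genes had groups that did not overlap, where every T library lay above every NT library for 5.43% of tested genes and below for 2.32%. By edgeR's quasi-likelihood test none of the 46 members that passed the filter was called, and DESeq2 called 0. At an unadjusted p under 0.05 edgeR had 2 higher and 0 lower, beside 17.6% and 16.6% of tested genes. In that family 15.9% of 31773 tested genes were called. The window of the rule selected for small differences here, so these counts are no result about the genes.

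The 32 genes that peaked in NRPE1-RNAi T replicate 1 had a median of 21.3 CPM in that library. Their medians were 0.304 to 2.49 CPM in T replicates 2 to 6 and 0.160 to 1.15 CPM in the 6 NT libraries. T replicate 5 was the second highest T library for 26 of the 32. Among the NT libraries replicate 5 was the highest for 19 of the 32, where it was the highest for 13.4% of the genes of at least 2 CPM. The T and NT values of this family were part of the rule, so these counts are a description. Without T replicate 1 the median ratio of the 32 genes was 1.29.

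Glyma.17G259500, on chromosome 17, had 40.3 CPM in NRPE1-RNAi T replicate 1 and 0.0608 to 0.205 CPM in the other T libraries, against 0 to 0.290 CPM in NRPE1-RNAi NT leaves. Glyma.09G021100 had 17.2 CPM in T replicate 1 and no count in the other 5 T libraries, against at most 0.128 CPM in NT leaves. Glyma.08G069300 had 72.9 CPM in T replicate 1 and 0.598 to 1.59 CPM in the other T libraries, against 0.191 to 1.39 CPM in NT leaves. In each of these 3 genes T replicate 1 held over 50% of the T signal and stood far above the other T plants.

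Most of these 32 genes were well expressed in the Jack family, in plants with and without the NRPD1-RNAi construct. All 6 Jack libraries lay above all 12 NRP(D/E)2-RNAi libraries for 21 of the 32, beside 8.17% of the genes of at least 2 CPM. For 18 of the 32 the Jack mean was at least 10-fold the NRP(D/E)2-RNAi mean, with 0.5 CPM added. Cultivar and family cannot be told apart in that comparison. The NRP(D/E)2-RNAi values were also part of the rule, and both group means there were under 0.5 CPM for 15 of the 32. The median of the 32 genes was 24.5 CPM in NRPD1-RNAi T replicate 2 and 4.29 CPM in T replicate 3, the highest and lowest T libraries, against 21.9, 15.7 and 23.95 CPM in NRPD1-RNAi NT replicates 1 to 3. NRPD1-RNAi T replicate 3 was the lowest Jack library for 24 of the 32, beside 13.0% of the genes of at least 2 CPM.

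Single genes showed the same picture. Glyma.17G259500 had 415, 437 and 8.30 CPM in NRPD1-RNAi T leaves, against 389, 63.4 and 561 CPM in NRPD1-RNAi NT leaves. Glyma.08G069300 had 265, 241 and 38.5 CPM in T leaves, against 164, 124 and 315 CPM in NT leaves. Glyma.09G021100 differed from these, with 0.460, 1.64 and 1.67 CPM in T leaves, against 6.68, 15.03 and 0.883 CPM in NT leaves.

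The 14 genes that peaked in NRPE1-RNAi T replicate 6 had a median of 24.1 CPM there, and medians of 0.149 to 1.24 CPM in the other T libraries. In the 6 NT libraries their medians ran between 0 and 1.36 CPM. T replicate 4 was the second highest T library for 9 of the 14. NT replicate 4 was the highest NT library for 8, where it was the highest for 37.0% of the genes of at least 2 CPM. Here too the counts are a description, since the rule used these values. Without T replicate 6 the median ratio of the 14 genes was 1.06.

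Glyma.05G065700, on chromosome 5, had 24.4 CPM in T replicate 6 and at most 0.0919 CPM in the other T libraries. Among NT libraries it had 2.73 CPM in replicate 4 and no count in the other 5. Glyma.13G023800 had 29.0 CPM in T replicate 6 and at most 0.122 CPM in the other T libraries, against at most 0.508 CPM in NT leaves. Glyma.20G067800 was the exception among the 14, since its other T plants were also above all NT plants: it had 102 CPM in T replicate 6, 11.5 CPM in T replicate 5 and 0.197 to 1.39 CPM in T replicates 1 to 4, against at most 0.145 CPM in NT leaves. The lowest T value and the highest NT value of that gene stand for 3 counts and 2 counts, so the lowest T plant is not separated from the NT plants beyond counting error.

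In the Jack family 3 of these 14 genes had no count. Glyma.03G050100 had 1.23, 0.656 and 53.2 CPM in NRPD1-RNAi T leaves, against 86.7, 67.4 and 3.29 CPM in NRPD1-RNAi NT leaves. Among the 11 with a count, NRPD1-RNAi T replicate 3 was the highest Jack library for 8, beside 52.4% of the genes of at least 2 CPM. Glyma.08G180600 had 58.6 CPM in NRPE1-RNAi T replicate 6. In the Jack family it had 14.4 CPM in NRPD1-RNAi T replicate 3 and no count in the other 5 libraries.

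Over 50% of the T signal lay in T replicate 2 for 2 genes. Glyma.11G170200 had a count in all 6 NRPE1-RNAi T libraries, at 0.328 to 9.15 CPM, and no count in any of the 6 NRPE1-RNAi NT libraries. Glyma.04G129400 had 6.89, 11.7 and 2.84 CPM in T replicates 1, 2 and 6 and at most 0.0459 CPM in the other T libraries, and it had 0.0855 CPM in 1 NT library and no count in the other 5. The only other member without a count in the 6 NT libraries was Glyma.08G246200, with 2.19, 2.82 and 12.1 CPM in T replicates 2, 5 and 6. None of Glyma.11G170200, Glyma.04G129400 and Glyma.08G246200 had a count in the 6 NRP(D/E)2-RNAi NT libraries. Summed over the 6 NRP(D/E)2-RNAi T libraries they had 13, 23 and 13 counts, in that order. Their highest values in those T libraries were 0.690, 1.39 and 0.298 CPM.

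The NRPD1-RNAi family gave the one transgene contrast that had no part in choosing the genes. In that family edgeR called 5 of 30539 tested genes (0.0164%), all higher in T. Of the 81 genes, 59 passed the filter and none of them was called in either direction. At an unadjusted p under 0.05 edgeR had 8 of the 59 higher and 2 lower, beside 6.23% and 1.59% of all genes tested. DESeq2 called 4 of the 59 higher and 0 lower, where it called 1.68% of all tested genes higher. The median log2 fold change, T over NT, was -0.16 over the 59 genes and 0.01 over all genes tested. A p above the threshold does not show that the 2 groups were alike. Without NRPD1-RNAi T replicate 3 edgeR called 54 genes, of which 0 were members.

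The spread genes and the genes of NRPE1-RNAi T replicate 1 had opposite medians in that family. The 26 spread genes that passed the filter had a median log2 fold change of 0.71, and all 8 genes that were higher at an unadjusted p under 0.05 were among them. The 31 genes of T replicate 1 had a median of -0.30, and both genes that were lower at an unadjusted p under 0.05 were among them. NRPD1-RNAi T replicate 3 moved with both. Without it the median was 0.29 for the spread genes, -0.01 for the genes of T replicate 1, 0.06 for the 61 members then tested and -0.02 for all genes tested. Over all 81 genes with no filter, the 3 NRPD1-RNAi T libraries lay above the 3 NT libraries for 11, of which 10 were spread genes, beside 8.34% of the genes of at least 2 CPM. They lay below for 3, beside 3.8%. A single gene compared by an exact permutation test could not go below p = 0.1 with 3 plants against 3.

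The genes named next were chosen after their values in this family were seen. Glyma.07G192400 had 2.76, 3.93 and 4.22 CPM in NRPD1-RNAi T leaves, against 0.621, 0.307 and 0.883 CPM in NRPD1-RNAi NT leaves. The groups did not overlap, and the log2 fold change was 2.54 ± 0.39 (SE), with an adjusted p of 0.126 by edgeR and 0.000113 by DESeq2. Glyma.06G287000 had 6.05, 7.21 and 9.17 CPM in T leaves, against 2.95, 3.45 and 2.49 CPM in NT leaves. Its log2 fold change was 1.24 ± 0.26 (SE), with an adjusted p of 0.220 by edgeR and 0.0146 by DESeq2. Both genes kept their direction and size without NRPD1-RNAi T replicate 3, at 2.52 and 1.19.

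Glyma.20G047700 had 16.02, 3.52 and 6.62 CPM in NRPD1-RNAi T leaves, against 2.25, 0.537 and 0.642 CPM in NRPD1-RNAi NT leaves. Its log2 fold change was 2.93 ± 0.78 (SE), with an adjusted p of 0.339 by edgeR and 0.0106 by DESeq2. Glyma.16G039800 had 39.6, 24.7 and 108 CPM in T leaves, against 16.2, 14.96 and 15.5 CPM in NT leaves. Its log2 fold change was 1.75 ± 0.45 (SE), with an adjusted p of 0.319 by edgeR and 0.0207 by DESeq2. In both genes all 3 T plants were above all 3 NT plants. Without NRPD1-RNAi T replicate 3 the log2 fold change was 3.16 for Glyma.20G047700 and 1.10 for Glyma.16G039800, with adjusted p of 0.194 and 0.153 by edgeR. These 4 genes were all of the spread class, and DESeq2's calls were not shared by edgeR for any of them. Glyma.10G145300 had the largest log2 fold change among the tested members, 4.16 ± 1.25 (SE, adjusted p = 0.423 by edgeR), and rested on T replicate 3. It had 1.38, 1.15 and 24.1 CPM in T leaves, against 0.388, 0.307 and 0.562 CPM in NT leaves, and without T replicate 3 the log2 fold change was 1.63. In the other direction, Glyma.08G022300 had 15.2, 29.99 and 10.6 CPM in T leaves, against 57.0, 34.4 and 36.4 CPM in NT leaves. Its log2 fold change was -1.20 ± 0.45 (SE, adjusted p = 0.573 by edgeR).

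**Figure D5:**
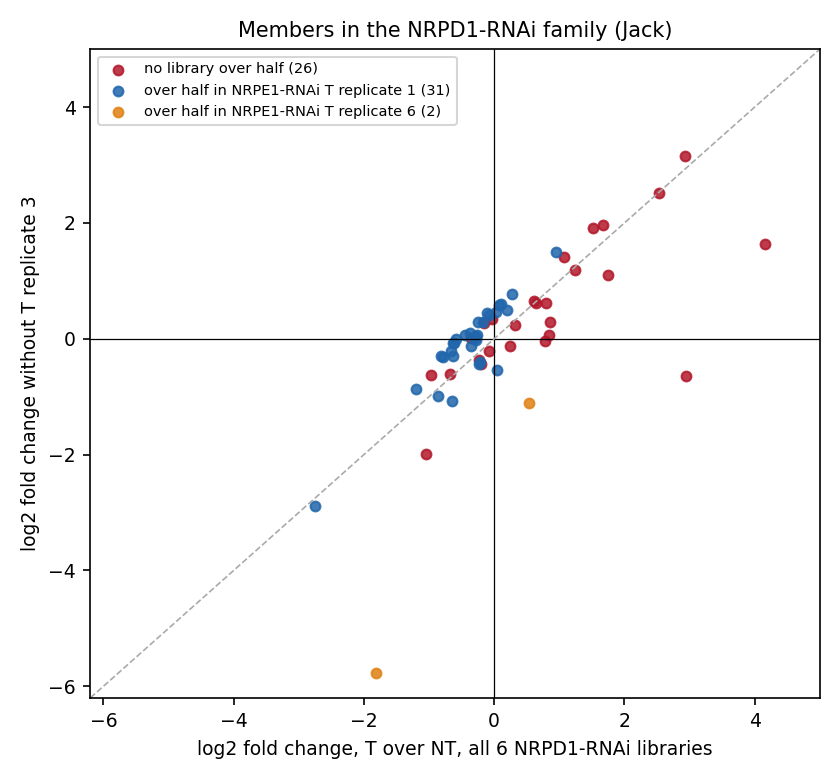
Log2 fold change, T over NT, of the 59 tested members in the NRPD1-RNAi family with all 6 libraries (x axis) and without NRPD1-RNAi T replicate 3 (y axis), 1 point per gene, coloured by class, with the dashed line at equal values. Most spread genes lie right of 0 and most genes of NRPE1-RNAi T replicate 1 lie left of 0; without T replicate 3 the medians of these classes are 0.29 and -0.01.

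The identifiers directly beside the members were examined in the same fit. For 5 of the 81 genes, all of the spread class, an adjacent identifier was called higher in NRPE1-RNAi T by edgeR, beside 1.29% of the genes tested. That share is over tested genes only, and 48 of the 81 members were tested in the NRPE1-RNAi family. The rule used the same contrast, so the count is a description. Glyma.06G286900, next to Glyma.06G287000, averaged 549 CPM in NRPE1-RNAi T leaves and 4.84 CPM in NRPE1-RNAi NT leaves. Its T mean was also the larger one in the other families, at 58.5 CPM in NRP(D/E)2-RNAi T and 0.350 CPM in NRP(D/E)2-RNAi NT leaves, and at 75.1 CPM in NRPD1-RNAi T and 0.674 CPM in NRPD1-RNAi NT leaves. Glyma.18G042000, next to Glyma.18G041900, averaged 76.4 CPM in NRPE1-RNAi T leaves and 0.978 CPM in NRPE1-RNAi NT leaves. It averaged 21.3 CPM in NRP(D/E)2-RNAi T leaves and 3.91 CPM in NRP(D/E)2-RNAi NT leaves. Both neighbours thus had a T mean above the NT mean in the NRP(D/E)2-RNAi family, where the member beside them had a ratio of 1.34 and 1.42.

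Glyma.14G200800, next to Glyma.14G200900, averaged 7.09 CPM in NRPE1-RNAi T leaves and 0.233 CPM in NRPE1-RNAi NT leaves. Glyma.12G144700 had a called gene on either side, of which Glyma.12G144800 averaged 11.0 CPM in NRPE1-RNAi T leaves and 0.377 CPM in NRPE1-RNAi NT leaves. Glyma.02G237700, next to Glyma.02G237800, averaged 82.4 CPM in NRPE1-RNAi T leaves and 38.9 CPM in NRPE1-RNAi NT leaves. In the NRP(D/E)2-RNAi family these neighbours too had a T mean above the NT mean. The means were 0.735 and 0.0634 CPM for Glyma.14G200800, 0.759 and 0.128 CPM for Glyma.12G144800, and 49.3 and 45.2 CPM for Glyma.02G237700. How reads of overlapping or antisense genes were counted is not given in the sources used here, so values of adjacent genes may share reads. None of the 6 neighbours was itself a member.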

How the data were processed

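The authors deposited 1 table per library with a raw count for each of 55589 identifiers; the submitters' processing notes name FastQC 0.11.5, STAR 2.5.3a and edgeR, and neither build nor counting program nor strandedness is given in the sources used here. For that reason reads of near-identical, overlapping or antisense genes may have been counted for either gene. Of the identifiers, 0 matched the RefSeq gene table (59048 rows, Glycine_max_v4.0), so names, product classes and sequences are not used here.

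CPM were computed from total counts. Within each family, genes kept by filterByExpr were tested, after TMM scaling, with edgeR 4.0.16's quasi-likelihood test in R 4.3.3, without a replicate block, and p-values were adjusted over all genes tested by the Benjamini-Hochberg method. SEs are derived from the F statistic. DESeq2 1.42.0, total-count scaling, no filter, a replicate block and leaving out each library were alternatives. The script was tested on simulated data. No library pair of a group agreed within sampling noise (lowest chi-square per degree of freedom 6.57). Figures used Python 3.11.15 and matplotlib 3.10.9.

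The members and lists were chosen with earlier results of these data known. Named are the 12 highest ratios among members whose NRPE1-RNAi groups do not overlap, the 6 highest T means, members called in NRPD1-RNAi by edgeR (none), the 3 genes on either side of the ratio threshold, the 4 with the largest single-library share and the 4 highest NRP(D/E)2-RNAi means. Other named genes were chosen after their values were seen.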

Additional observations from a re-analysis of the deposited data

Results flagged for a closer look

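In 25 named genes, each Mustang group of 6 libraries was examined for a library far from the other 5: its gap to the nearest one, divided by the range of the group, had to exceed Dixon's 95% critical value for 6 values. Of 100 groups 26 exceeded it, where chance gives about 1 in 20 for normally distributed values. Many of these CPM were near the floor and not so distributed, so no excess over chance is read from that count. Over all 81 genes the count was 46 in NRPE1-RNAi T, 28 in NRPE1-RNAi NT, 13 in NRP(D/E)2-RNAi T and 14 in NRP(D/E)2-RNAi NT. The genes were partly named for their share in 1 library, so flags among NRPE1-RNAi T libraries follow from the naming.

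NRPE1-RNAi T replicate 1 stood above its group for Glyma.03G175000 (0.744), Glyma.09G021100 (1), Glyma.14G200900 (0.777), Glyma.15G118500 (0.958) and Glyma.17G259500 (0.996). NRPE1-RNAi T replicate 6 stood above it for Glyma.05G065700 (0.996), Glyma.13G023800 (0.996), Glyma.16G039800 (0.717) and Glyma.20G067800 (0.889). Among NRPE1-RNAi NT libraries, replicate 4 was the high one for Glyma.01G077000 (0.667), Glyma.02G053600 (0.764), Glyma.05G065700 (1), Glyma.07G192400 (0.787) and Glyma.12G079500 (0.731), and the low one for Glyma.04G250900 (0.872). NT replicate 3 was the high one for Glyma.13G023800 (0.663).

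In NRP(D/E)2-RNAi T leaves the high library was replicate 3 for Glyma.02G053600 (0.799) and Glyma.11G170200 (0.736), and replicate 5 for Glyma.09G021100 (1) and Glyma.13G023800 (0.696). It was replicate 1 for Glyma.04G250900 (0.672) and replicate 6 for Glyma.19G028900 (0.797). In NRP(D/E)2-RNAi NT leaves it was replicate 4 for Glyma.07G192400 (0.665), Glyma.11G043600 (0.764) and Glyma.13G023800 (0.955), and replicate 3 for Glyma.09G021100 (1). Most of these NRP(D/E)2-RNAi flags are at levels of a few counts.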

How the results depend on the processing

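The rule gave 52 genes with group medians in place of means, 18 of them among the 81, and 144 with a window of 0.5 to 2, all 81 included. It gave 42 with NRPE1-RNAi T replicates 1 and 6 left out together, which was chosen after seeing the data, and 63 to 140 with each Mustang library left out in turn, the 140 without NRPE1-RNAi NT replicate 4. TMM scaling gave 100 genes (80 of the 81), and adding 0.1 or 1 CPM in place of 0.5 gave 82 (49 of the 81) and 66 (50 of the 81). In NRPE1-RNAi 618 genes were called by edgeR, 1615 by DESeq2, and 441 to 2102 with each library left out, the 2102 without NT replicate 4. Members called there ran between 19 and 29 with each library left out. In NRP(D/E)2-RNAi 5037 genes were called, and 2921 to 5521 with each library left out, with 2921 without T replicate 3, 3060 without T replicate 2 and 3220 without NT replicate 4. Members called there were 0 in all of these and 2 with no filter on low counts. In NRPD1-RNAi edgeR called 5 genes, 1 with total-count scaling, 10 with no filter and 0 to 54 with each library left out, the 54 without T replicate 3; DESeq2 called 554. Members called there were 0 under each edgeR setting tried and 4 with DESeq2. The median log2 fold change of the members there was -0.16, and -0.34 to 0.12 with each library left out, the 0.12 without NT replicate 3. The cause of these changes was not tested.

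The labels do not say whether replicate numbers pair T and NT plants. The correlation of same-numbered deviations ran between -0.42 and 0.46 for NRPE1-RNAi, -0.35 and 0.28 for NRP(D/E)2-RNAi, and -0.51 and -0.30 for NRPD1-RNAi. These mixed values do not settle it. With the replicate number as a block, 293 NRPE1-RNAi, 2198 NRP(D/E)2-RNAi and 0 NRPD1-RNAi genes were called, among them 16, 0 and 0 members. The median log2 fold change of the members in NRPD1-RNAi with the block was -0.22. A single count was worth up to 0.0995 CPM, so differences between levels of a few counts were not detectable.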
